A study of Homo sapiens with 36 samples.

Results

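JEKO is an established human mantle cell lymphoma line, a B-cell tumour line marked by cyclin D1 and SOX11. The libraries described here are all 6 JEKO libraries given only the vehicle DMSO, chosen by line and treatment label: 3 biological replicates collected at 24 h and 3 at 72 h, of 36 libraries in the series. The other libraries came from JEKO given GS716054, which inhibits KDM5 histone demethylases, and from the mantle cell lymphoma lines MINO and UPN-1 given DMSO or GS716054, each at 24 h and 72 h in 3 biological replicates. Per the labels, every line was grown in RPMI-1640 with fetal bovine serum, glutamine and antibiotics. Each line is a single cultured population, and the labels give no cell density, passage or change of medium. Both times carried DMSO, so the comparison asks what differed between the later and the earlier harvest of cultures that received no inhibitor.

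A culture left to grow spends glucose and amino acids, acidifies and becomes denser. Cells read amino acid shortage mainly through the kinase GCN2 and the transcription factor ATF4, which switches on amino acid synthesis, amino acid import and feedback inhibitors. MondoA answers glucose phosphates through TXNIP and ARRDC4, FOXO factors act when growth signals are weak, and HIF1 acts when oxygen is low. Growth itself depends on E2F for replication genes and on MYC and mTORC1 for ribosome production. Interferon genes are switched on by STAT and IRF factors, and heat shock genes by HSF1, which binds inverted GAA repeats.

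The 6 libraries held 10517251 to 12702090 reads in genes, and 3 reads were worth 0.236 to 0.285 CPM, the read count divided by the scaled library size. The marker genes were those of the label. The 8 B-cell markers summed to 1880 to 2010 CPM at 24 h and 1880 to 2250 CPM at 72 h, and CCND1 with SOX11 summed to 2750 to 2830 and 2670 to 3210 CPM. All 8 monocyte markers stayed under 1 CPM in each library, with 5 of the 8 at 0, and CD2 was at 0 among the T-cell markers. The summed T-cell markers were 47.9 to 52.7 CPM at 24 h and 58.5 to 144 CPM at 72 h, mostly reads of TRAC, while 5 of these 8 markers stayed under 1 CPM. Genes with at least 1 read numbered 20965 to 21650 at 24 h and 22631 to 23797 at 72 h. Log2 CPM correlated at r = 0.9838 to 0.987 between replicates at 24 h and at r = 0.9505 to 0.9747 at 72 h (Pearson, across genes, which are not independent replicates). The 72 h libraries were thus less alike, and many groups of genes were placed differently in replicate 1 and replicate 2 at 72 h. The JEKO GS716054 24 h replicate 2 library, which shares the estimate of the spread, stood apart in its ribosomal protein genes (median 1.13 lower on the log2 scale than the DMSO 24 h mean) and its nuclear oxidative phosphorylation genes (median -0.75). A test on the 6 DMSO libraries alone called 5173 of 15575 genes. In bulk RNA, fewer cells of a kind and less RNA per cell cannot be told apart.

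Of 16690 genes tested, 5299 (31.7%) passed an adjusted p of 0.05 in the 72 h against 24 h comparison (edgeR's quasi-likelihood test with Benjamini-Hochberg adjustment over all genes). Of these, 2856 (17.1% of all) were higher at 72 h and 2443 (14.6%) were lower, and for 5181 (31.0%) the 3 libraries of one time did not overlap with those of the other. The rises were the larger changes. Their median was 1.27 on the log2 scale and 1859 of them exceeded 2-fold, against a median size of 0.69 and 370 over 2-fold among the falls. The median of all genes tested was 0.05. Scaling by total gene reads in place of TMM, a choice made after the data were seen, moved that median to 0.17 and the calls to 3362 higher and 1549 lower, so 68.46% of calls were higher in place of 53.9%. Without a single library the count of calls ranged from 2717 (without 24 h replicate 3) to 4914, and it was 3393 without 24 h replicate 2. In total 1282 higher and 1079 lower calls held without any one library.

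The direction went with a gene's level. Of the 1487 genes with a mean log2 CPM of 7 or more, 36.1% fell and 6.46% rose, and their median change was -0.31. Of the 3037 genes with a mean log2 CPM under 1, 1.51% fell and 22.4% rose, and their median change was 0.77. The low-count filter keeps a gene that reaches the minimum count in 3 of the 12 JEKO libraries. A gene of low mean can thus be tested only because its 72 h libraries are high. The shares of this lowest group are therefore bound up with the filter and are not a result about genes of low level. By gene type, 16% of 12412 protein-coding genes rose and 17.5% fell. Among 2933 long non-coding RNA genes, 20.5% rose and 6.65% fell. At mean levels from 4 to 7 log2 CPM, 21.8% of 7143 genes fell and 13.1% rose. The counts of lists of abundant genes below are to be read against these shares, which are not repeated for every list.

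**Figure D1:**
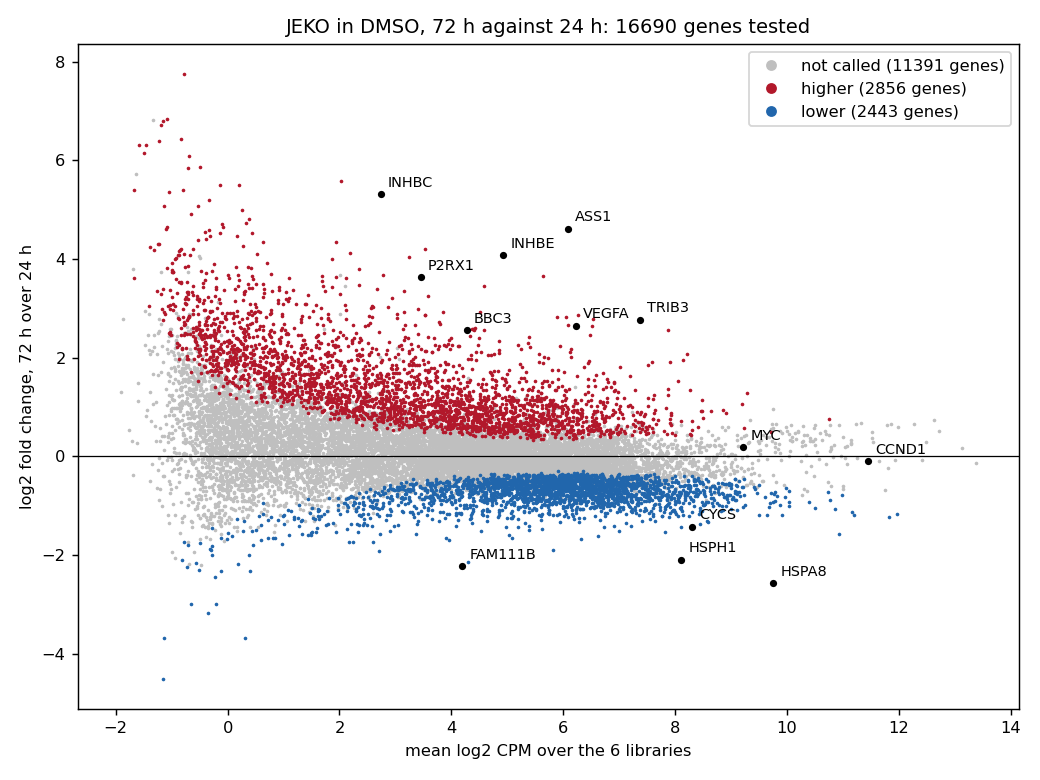
Change from 24 h to 72 h in JEKO DMSO cultures (log2 fold change, y axis) against the mean level over the 6 libraries (log2 CPM, x axis), with 1 point for each of the genes tested; called genes are coloured by direction and some named genes are labelled. Called rises lie across all levels and reach above 5, while most called falls lie between 0 and -2 and among abundant genes, with HSPA8 the lowest of the labelled ones at -2.57.

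Among called genes with a mean level of 1 log2 CPM or more whose times did not overlap, the largest rise was of INHBC, which codes for the activin beta C subunit. Its level was 1.09, 1.37 and 1.00 CPM in 24 h replicates 1, 2 and 3, and 92.8, 11.7 and 34.7 CPM in the 72 h replicates, a log2 fold change of 5.31 ± 0.93 (SE; adjusted p = 0.00176). INHBE, the activin beta E gene, lies directly beside it on chromosome 12 (GRCh38, 57452323 to 57459280, after INHBC at 57434784 to 57452062). INHBE read 10.8, 8.29 and 5.84 CPM at 24 h and 229, 40.2 and 152 CPM at 72 h, a change of 4.08 ± 0.69 (adjusted p = 0.00155). Both genes were separated between times, and both were highest in replicate 1 and lowest in replicate 2 at 72 h.

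ASS1, argininosuccinate synthase, makes the precursor of arginine from citrulline and aspartate. It read 18.1, 17.7 and 12.6 CPM at 24 h and 641, 76.1 and 468 CPM at 72 h, 24.5-fold higher (log2 4.61 ± 0.86, adjusted p = 0.00231). Replicate 2 was again the lowest 72 h library, and it too lay above all 24 h libraries. The other genes among the 12 largest rises were ENSG00000270605 (4.12), IZUMO4 (3.99), UNC5B (3.67), SYTL1 (3.65), the ATP-gated channel P2RX1 (3.63), MST1 (3.63), the unconventional myosin gene MYO15B (3.61), RAB3IL1 (3.61) and PDIA2 (3.80, all as log2 fold change). PDIA2 rested mostly on 1 library, with 81.8, 3.40 and 4.83 CPM at 72 h, and fell to a log2 change of 0.95 (adjusted p = 0.48) without 72 h replicate 1. Its call was also lost without 24 h replicate 1, 2 or 3 (adjusted p = 0.068, 0.086 and 0.092).

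The 12 largest falls, by the same rule, held 3 heat shock genes, 1 heat shock pseudogene and 3 genes of S phase. RRM2, the small subunit of ribonucleotide reductase, read 97.1, 102 and 134 CPM at 24 h and 21.6, 28.9 and 38.7 CPM at 72 h, 3.73-fold lower (log2 -1.90 ± 0.38, adjusted p = 0.00309). FAM111B, a serine protease gene expressed in S phase, changed by -2.23, and the cohesin acetyltransferase ESCO2 by -1.70. KCNN3, a calcium-gated potassium channel, went from 43.0, 38.0 and 55.3 CPM to 3.06, 13.4 and 14.5 CPM (-2.14). NLRP3, the inflammasome sensor, changed by -1.73, the pseudogene SERBP1P5 by -1.73, and the acyl-CoA thioesterase ACOT7 by -1.67. SCAMP5, a secretory membrane protein gene, went from 53.5, 59.0 and 69.7 CPM to 13.7, 19.4 and 24.7 CPM (-1.66 ± 0.24, adjusted p = 0.000803). All of these were separated between the times in each library.

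**Figure D2:**
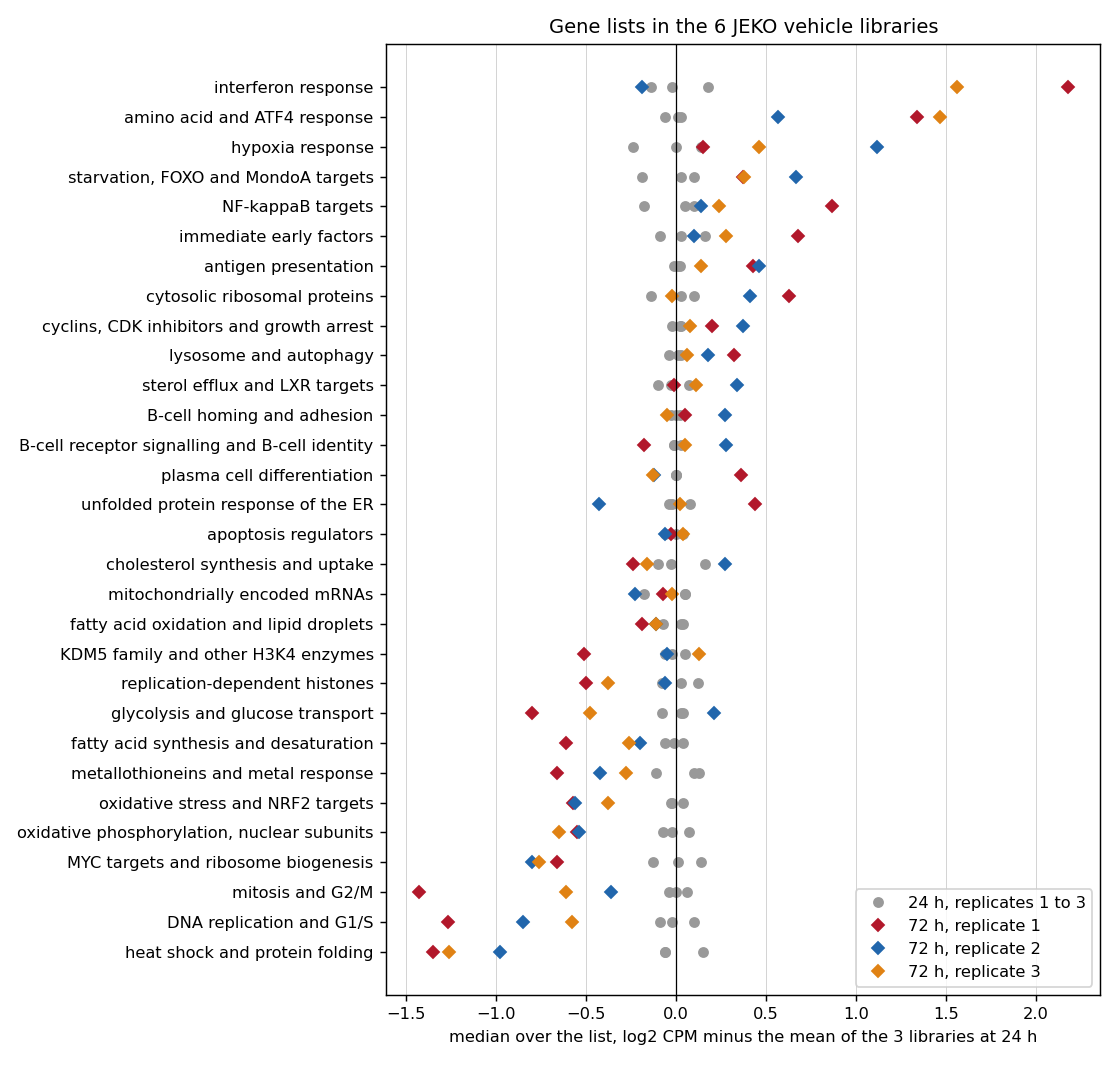
Median change of each of 30 gene lists in each 72 h JEKO DMSO library against the mean of the 3 libraries at 24 h (log2 scale, x axis), with 1 coloured point per library at 72 h and grey points for the 24 h libraries. The heat shock and the MYC and ribosome biogenesis lists have their 3 points close together below 0, the interferon list spreads from -0.19 in replicate 2 to 2.18 in replicate 1, and the hypoxia and glycolysis lists have replicate 2 at the top.

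Genes of the ATF4 response, which answers amino acid shortage and other stress, rose. Of 37 tested, 25 were higher and 1 lower (ALDH18A1), with a median of 1.29 on the log2 scale. The activating core of ATF4 target promoters is written here as TGATGNAA (N is any base, reverse complement TTNCATCA, both strands searched). It was found in 8 of 31 of these genes with a RefSeq promoter (25.8%), against 1003 of 27305 promoters (3.7%), in windows from 250 bases before to 50 after the start. A match is a string of letters, not a measured binding site. In this and the lists below, members are known genes of the response and all count, called or not. Such shares therefore say nothing of the change at 72 h. The 250 bases before the start of ASNS (RefSeq, GRCh38.p14, chr7:97872409-97872658, minus strand, 5′ to 3′) are shown because ASNS is the textbook case, with the match, 68 bases before the start, in capitals.
ASNS: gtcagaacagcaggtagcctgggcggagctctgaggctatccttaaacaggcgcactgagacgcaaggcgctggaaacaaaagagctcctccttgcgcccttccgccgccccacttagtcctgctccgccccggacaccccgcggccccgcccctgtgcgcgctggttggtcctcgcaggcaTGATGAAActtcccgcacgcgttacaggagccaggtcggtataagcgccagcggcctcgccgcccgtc

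ASNS, asparagine synthetase, read 1.39, 0.769 and 0.365 CPM at 24 h and 3.54, 3.40 and 7.21 CPM at 72 h, 5.60-fold higher (log2 2.49 ± 0.59, adjusted p = 0.00762). These were only 14, 9 and 4 reads at 24 h, near the floor in replicate 3, and 44, 39 and 88 reads at 72 h. TRIB3, a pseudokinase that ATF4 induces and that holds ATF4 back, read 67.6, 67.1 and 86.9 CPM at 24 h and 868, 109 and 533 CPM at 72 h, 6.81-fold higher (2.77 ± 0.62, adjusted p = 0.00556). The glycine transporter SLC6A9 went from 2.89, 1.79 and 2.01 CPM to 24.9, 5.40 and 23.1 CPM (3.00 ± 0.61, adjusted p = 0.00343). Each of these was higher in all 72 h libraries, and replicate 2 was the lowest 72 h library in each. ATF4 itself, given after its values were seen, went from 206, 219.5 and 171 CPM to 672, 301 and 545 CPM (1.35 ± 0.29, adjusted p = 0.00461). The list's median in the 72 h libraries was 1.34, 0.57 and 1.47 in replicates 1, 2 and 3, and 32 of the 37 genes were lowest in replicate 2.

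Genes raised by starvation, FOXO factors or MondoA rose in part. Of 24 tested, 9 were higher and 0 lower, with a median of 0.59. TXNIP, the arrestin that restrains glucose uptake, read 57.9, 44.1 and 40.8 CPM at 24 h and 86.4, 265 and 193 CPM at 72 h, 3.81-fold higher (log2 1.93 ± 0.39, adjusted p = 0.00345). DDIT4 (REDD1), an inhibitor of mTORC1, is not a member of this list and is counted in the ATF4 and hypoxia lists. It read 60.5, 112 and 42.5 CPM and then 246, 272 and 235 CPM (1.80 ± 0.30, adjusted p = 0.00139). In both genes every 72 h library was above every 24 h library, and TXNIP was lowest in replicate 1 at 72 h. Other members of the list that rose were the TXNIP relative ARRDC4 (1.77), the glucocorticoid-induced leucine zipper TSC22D3 (1.64) and the muscle-atrophy ubiquitin ligase FBXO32 (1.35). Scaling by total gene reads raised the count from 9 to 14.

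Of 31 lysosome and autophagy genes, 7 were higher and 5 lower (9 and 2 under scaling by total gene reads), with a median of 0.19, against 17.1% and 14.6% of all genes. The counts were 4 and 3 without 24 h replicate 1 or 2, 5 and 2 without 24 h replicate 3, 6 and 2 without 72 h replicate 2 and 6 and 3 without 72 h replicate 3. The lysosomal alpha-glucosidase GAA went from 20.9, 17.1 and 16 CPM to 59.0, 72.3 and 49.2 CPM (1.74 ± 0.17, adjusted p = 0.000219). The autophagy genes WIPI1 (2.18) and ULK1 (1.12), and FLCN (1.02), which acts on mTORC1 at the lysosome, also rose. WIPI1 has 28.1% of its exonic length overlapped by a gene on the other strand, so its reads cannot be assigned to 1 strand with certainty.

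Heat shock genes fell together. Of 24 tested, 0 were higher and 20 lower, with a median of -1.20, and the count stayed between 19 and 21 when any 1 library was left out. The heat shock element was searched as GAANNTTC, which is its own reverse complement, and found in 8 of 22 promoters of the list (36.4%), against 1875 of 27305 (6.9%). HSPA8, the constitutive HSC70 chaperone and the largest of the 12 falls, is shown for its 250 bases before the start (RefSeq, GRCh38.p14, chr11:123062137-123062386, minus strand, 5′ to 3′), with 2 matches in capitals, 230 and 50 bases before the start.
HSPA8: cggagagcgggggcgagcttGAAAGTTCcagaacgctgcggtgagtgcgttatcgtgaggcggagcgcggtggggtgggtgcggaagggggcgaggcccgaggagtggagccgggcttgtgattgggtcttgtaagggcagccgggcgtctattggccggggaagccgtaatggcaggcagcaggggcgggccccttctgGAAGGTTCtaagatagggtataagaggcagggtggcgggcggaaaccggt

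HSPA8 read 1943, 2115 and 2446 CPM at 24 h and 221, 476 and 396 CPM at 72 h, 5.95-fold lower (log2 -2.57 ± 0.32, adjusted p = 0.000563). HSPH1, the HSP110 co-chaperone, went from 572, 498 and 680.1 CPM to 91.6, 171 and 147 CPM (-2.10 ± 0.24, adjusted p = 0.000402). CHORDC1, an HSP90 co-chaperone, went from 163, 157 and 202 CPM to 45.1, 66.3 and 58.8 CPM (-1.62 ± 0.20, adjusted p = 0.000563). The groups did not overlap for any of these, and replicate 1 was the lowest 72 h library in all of them. HSPA1A, an inducible HSP70, changed by -1.73 from 12.7, 6.41 and 6.67 CPM to 3.30, 2.79 and 1.64 CPM, but shares reads with its near-identical copy HSPA1B, so the split between them is uncertain. HSP90AA2P (-1.91) is a pseudogene copy of HSP90AA1, and its reads may belong to the parent gene. The heat shock list was low in each 72 h library, with medians of -1.35, -0.98 and -1.26 in replicates 1, 2 and 3. Of its 24 genes, 20 were lowest in replicate 1 and 21 were highest, and so least lowered, in replicate 2.

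**Figure D3:**
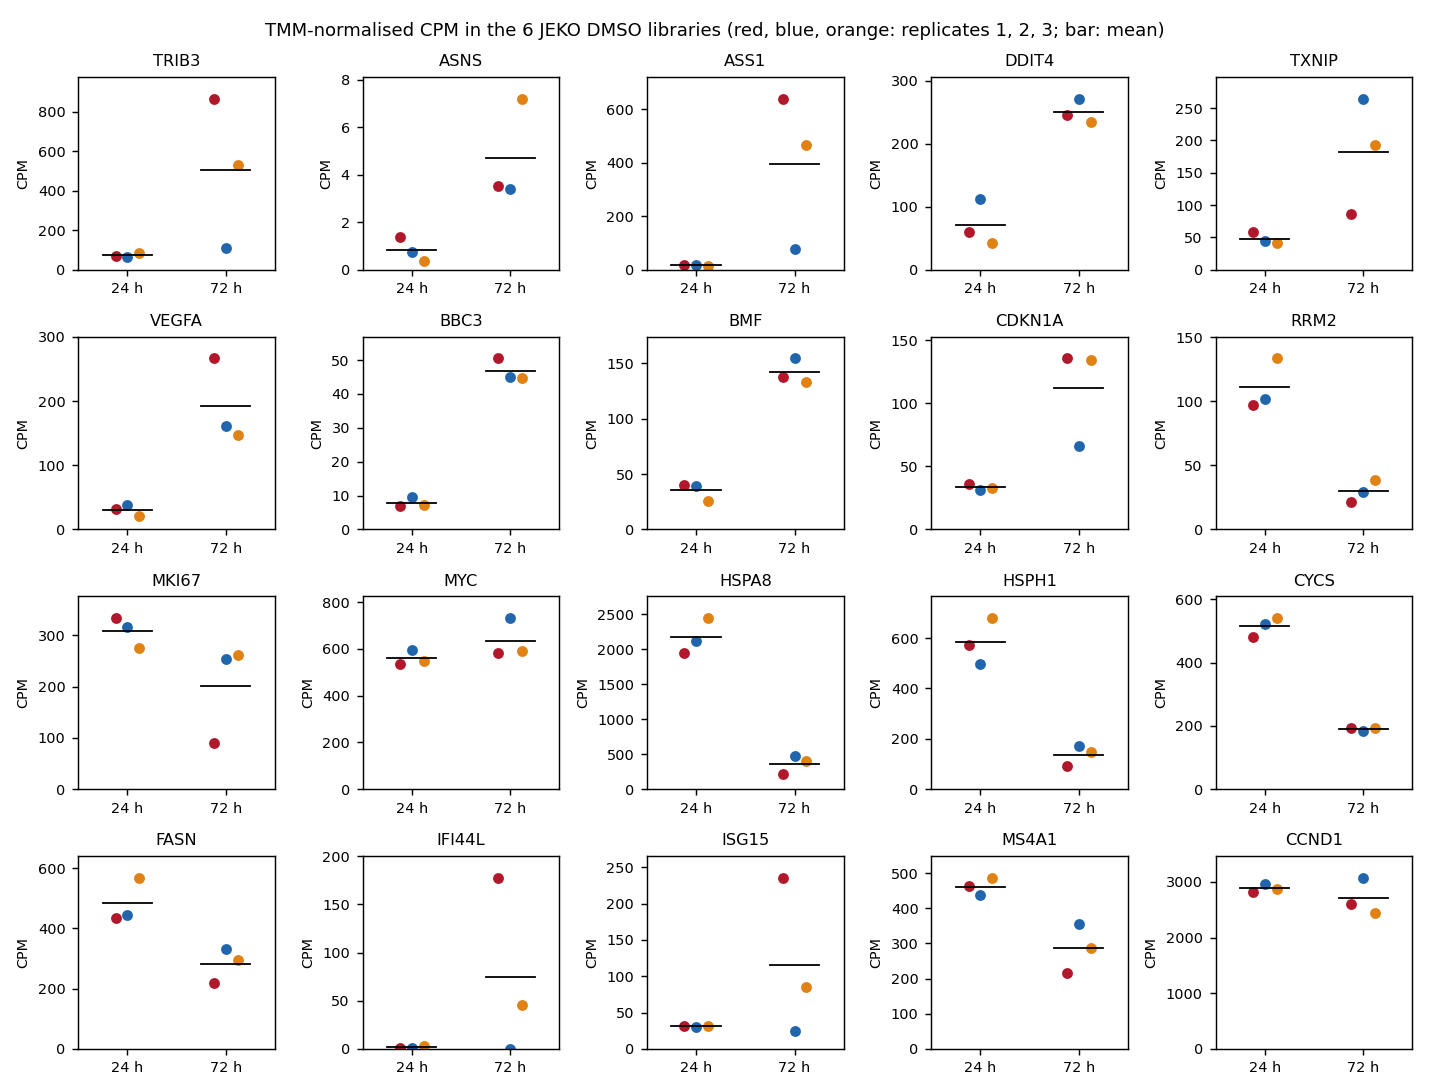
Level of 20 named genes (CPM, linear y axes that start at 0) in each of the 6 JEKO DMSO libraries, 3 at 24 h and 3 at 72 h, with 1 point per library and a line at each mean; red, blue and orange are replicates 1, 2 and 3. TRIB3 and ASS1 have 2 high and 1 low library at 72 h, HSPA8 and CYCS have all 72 h libraries far below those at 24 h, and MYC and CCND1 overlap.

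The unfolded protein response of the endoplasmic reticulum had 5 higher and 1 lower of 24 genes (median -0.01, and 0.11 under scaling by total gene reads). The share called in this list lay below the 31.7% of all genes. The rises numbered 3 without 24 h replicate 2, 2 without 24 h replicate 3, 2 (with 3 falls) without 72 h replicate 1 and 8 without 72 h replicate 2. HSPA5 (BiP), its chief chaperone, read 577, 586 and 650.2 CPM at 24 h and 753, 277 and 467 CPM at 72 h and did not pass (log2 -0.28 ± 0.31, adjusted p = 0.516). EDEM1, which sends misfolded glycoproteins to degradation, read 144, 136 and 112 CPM and then 312, 230.1 and 337 CPM (1.16 ± 0.26, adjusted p = 0.00566). HSPA5 thus spanned its 24 h values at 72 h, with replicate 1 above and replicate 2 below. The stress sensor ERN1 (1.92), HERPUD1 (1.25) and CRELD2 (0.96) also passed, each highest in replicate 1. Without that library their adjusted p was 0.052, 0.077 and 0.19. Their calls were also lost without 24 h replicate 3 (0.052, 0.061 and 0.077), those of HERPUD1 and CRELD2 without 24 h replicate 2 (0.052 and 0.089), and that of CRELD2 without 24 h replicate 1 (0.07).

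Oxidative stress genes under NRF2 were more often lower. Of 23 tested, 11 fell and 1 rose, with a median of -0.44, and 7 fell under scaling by total gene reads. The falls numbered 6 without 24 h replicate 1 or 3 or 72 h replicate 2, and 7 without 24 h replicate 2 or 72 h replicate 1. HMOX1, heme oxygenase, went from 10.2, 5.81 and 7.40 CPM to 3.70, 2.96 and 3.36 CPM (-1.21 ± 0.29, adjusted p = 0.00821). The peroxiredoxin PRDX1 (-1.10) and thioredoxin reductase TXNRD1 (-1.05) fell as well. The 1 member that rose, OSGIN1, had 0, 1 and 1 reads at 24 h and 19, 14 and 3 at 72 h. Of 10 metallothionein and metal-response genes, 0 rose and 3 fell, the largest fall being that of the zinc exporter SLC30A1 (-0.86). The share called in this metal list, 30.0%, was close to the 31.7% of all genes. MT2A read 6.97, 9.31 and 9.86 CPM and then 5.63, 3.75 and 7.95 CPM and did not pass (-0.59 ± 0.34, adjusted p = 0.192).

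DNA replication genes fell. Of 42 tested, 0 rose and 27 fell, with a median of -0.93. The E2F element was searched as TTTNGCGC (reverse complement GCGCNAAA) and found in 15 of 38 promoters of the list (39.5%), against 500 of 27305 (1.8%). The next highest share of a list was 8 of 23 promoters (34.8%) of replication-dependent histone genes, of which 1 of 27 tested passed. MCM6, a subunit of the replicative helicase, is shown because its promoter holds the string TTTGGCGCGAAA at 152 and again at 90 bases before the start. Each copy, in capitals, is 2 overlapping matches on opposite strands (RefSeq, GRCh38.p14, chr2:135876444-135876693, minus strand, 5′ to 3′).
MCM6: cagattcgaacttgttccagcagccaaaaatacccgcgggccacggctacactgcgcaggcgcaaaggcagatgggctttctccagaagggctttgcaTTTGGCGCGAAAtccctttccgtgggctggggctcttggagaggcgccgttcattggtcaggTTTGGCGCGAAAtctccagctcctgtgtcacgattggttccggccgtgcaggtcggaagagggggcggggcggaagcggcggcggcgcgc

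MCM6, given after its values were seen, went from 325, 323 and 350.2 CPM to 106, 149 and 224 CPM (-1.06, adjusted p = 0.00887). CLSPN, claspin of the replication checkpoint, read 38.9, 36.5 and 50.6 CPM at 24 h and 6.20, 13.6 and 24.0 CPM at 72 h (-1.52 ± 0.42, adjusted p = 0.0153). MCM2, a subunit of the same helicase as MCM6, read 509, 602 and 590.0 CPM and then 244, 413 and 455 CPM and did not pass (-0.61 ± 0.28, adjusted p = 0.102). All 3 genes were lower in every 72 h library, lowest in replicate 1. UHRF1, which copies DNA methylation, changed by -1.22. The list's medians at 72 h were -1.27, -0.85 and -0.58 in replicates 1, 2 and 3, and 39 of 42 genes were lowest in replicate 1. The count of 27 was 9 without that library and 8 without 24 h replicate 3. The calls of CLSPN and UHRF1 were lost without 24 h replicate 3 (adjusted p = 0.067 and 0.08), and that of UHRF1 also without 72 h replicate 1 (0.068) or 24 h replicate 2 (0.052).

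Mitosis genes fell less evenly. Of 40 tested, 0 rose and 12 fell (30.0%), with a median of -0.70. Over all genes tested 14.6% fell, with 21.8% at mean levels from 4 to 7 log2 CPM and 36.1% at 7 or more. CDC20, the activator of the anaphase-promoting complex, read 176, 171 and 189 CPM at 24 h and 41.7, 80.7 and 75.7 CPM at 72 h, 2.71-fold lower (-1.44 ± 0.32, adjusted p = 0.00506). MKI67, the proliferation antigen Ki-67, read 334, 316 and 275 CPM and then 89.7, 253 and 261 CPM and did not pass (-0.61 ± 0.37, adjusted p = 0.214). Replicate 1 was the lowest 72 h library for both, and for MKI67 the other two 72 h libraries lay just under the 24 h range. The kinesin KIF11 (-1.18), the spindle gene DLGAP5 (-1.25) and the kinase PLK1 (-1.09) passed as well. In all, 38 of the 40 genes were lowest in replicate 1, where the median was -1.43, against -0.36 and -0.61 in replicates 2 and 3. The count of 12 became 3 without 72 h replicate 1, 3 without 24 h replicate 3, 4 without 24 h replicate 1, 6 without 24 h replicate 2 and 18 without 72 h replicate 2. The calls of KIF11, DLGAP5 and PLK1 were all lost without 24 h replicate 3 (adjusted p = 0.058, 0.06 and 0.077), those of DLGAP5 and PLK1 also without 24 h replicate 1 (0.059 and 0.067) or 72 h replicate 1 (0.073 and 0.098), and that of PLK1 without 24 h replicate 2 (0.06). Only 1 of 27 replication-dependent histone genes passed: H3C8 fell by 1.05, a call lost without 24 h replicate 2 or 3 or 72 h replicate 1 or 3 (adjusted p = 0.061, 0.11, 0.1 and 0.052).

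Of the cell cycle inhibitors given here, CDKN1A and CDKN1C rose. CDKN1A (p21) read 36.4, 31.3 and 33.0 CPM at 24 h and 136, 65.9 and 135 CPM at 72 h, 3.34-fold higher (log2 1.74 ± 0.27, adjusted p = 0.0011). CDKN1C (p57) read 15.5, 18.5 and 17 CPM and then 38.1, 83.7 and 26.9 CPM (1.54 ± 0.32, adjusted p = 0.00388). CDKN1B (p27) read 70.3, 76.0 and 65.0 CPM and then 78.0, 101 and 89.9 CPM, which did not pass (0.35 ± 0.16, adjusted p = 0.118). The groups of all 3 were apart, with replicate 1 highest for CDKN1A and replicate 2 for CDKN1C. GAS5, a non-coding RNA of growth arrest that also hosts small nucleolar RNAs, went from 115, 124 and 78.1 CPM to 679, 271 and 239.7 CPM (1.91 ± 0.35, adjusted p = 0.0022). CCND1, the cyclin D1 that the defining translocation of mantle cell lymphoma drives, read 2823, 2969 and 2869 CPM and then 2596, 3079 and 2438 CPM (-0.09 ± 0.20, adjusted p = 0.745, and 0.03 under scaling by total gene reads). CCND2, another D-type cyclin, rose from 1.09 CPM or less to between 1.72 and 4.26 CPM (1.57), a call lost without 24 h replicate 3 or 72 h replicate 1 (adjusted p = 0.052 and 0.058). In the whole list of cyclins, inhibitors and arrest genes 6 of 20 rose and 3 fell, with a median of 0.26. The falls were of the cyclin gene CCND3 (-0.62), its kinase partner CDK4 (-0.74) and the retinoblastoma gene RB1 (-0.70), and without 24 h replicate 3 only CCND3 kept its call (adjusted p = 0.06 for CDK4 and 0.0502 for RB1).

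Ribosome biogenesis genes fell, while MYC did not pass the test. Of 39 MYC targets and ribosome biogenesis genes, 0 rose and 32 fell, with a median of -0.77. MYC read 534, 594 and 549 CPM at 24 h and 582, 732 and 592 CPM at 72 h (0.18 ± 0.15, adjusted p = 0.377). UTP20, part of the small-subunit processome, went from 61.4, 62.8 and 89.7 CPM to 20.8, 28.8 and 26.2 CPM (-1.50 ± 0.20, adjusted p = 0.000692). MYC thus overlapped between the times, and UTP20 did not. The mitochondrial chaperonins HSPE1 (-1.44) and HSPD1 (-1.19) and the processome gene UTP15 (-1.11) fell too. The list's medians of -0.66, -0.80 and -0.76 in the 3 libraries at 72 h lay close together, and the count stayed between 24 and 32 with any 1 library left out. Of 51 cytosolic ribosomal protein genes, 0 passed in either direction and the median was 0.37. Their medians at 72 h were 0.63, 0.41 and -0.02 in replicates 1, 2 and 3, and all 51 were lowest in replicate 3. Under scaling by total gene reads 5 of those 51 rose, and in the test on the 6 DMSO libraries alone 2 rose.

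Genes of oxidative phosphorylation encoded in the nucleus fell, and those encoded in mitochondrial DNA did not pass. Of 46 nuclear subunit genes 0 rose and 23 fell, with a median of -0.59. Of 13 mitochondrial mRNAs 0 passed in either direction, with a median of -0.10 (0.02 under scaling by total gene reads). CYCS, cytochrome c, read 482, 521 and 542 CPM at 24 h and 195, 185 and 194 CPM at 72 h, 2.69-fold lower (log2 -1.43 ± 0.17, adjusted p = 0.000462). ATP5MC1, a ring subunit of ATP synthase, read 185, 205 and 198 CPM and then 82.8, 71.6 and 65.7 CPM (-1.42 ± 0.26, adjusted p = 0.0022). Both genes had the 3 libraries of each time close together and far from the other time. ATP5PF (-1.01) and COX7B (-0.95) fell as well. The call of COX7B was lost without 24 h replicate 2 (adjusted p = 0.051), and 37.3% of the exonic length of ATP5PF is overlapped on the other strand. The count of 23 became 11 without 24 h replicate 2, 11 without 24 h replicate 3 and 15 without 72 h replicate 1.

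Hypoxia genes rose in part and were highest in replicate 2 at 72 h. Of 24 tested, 9 rose and 0 fell, with a median of 0.68. VEGFA, the vascular growth factor, read 32.2, 37.9 and 21.6 CPM at 24 h and 267, 162 and 147 CPM at 72 h, 6.26-fold higher (log2 2.65 ± 0.40, adjusted p = 0.000923). BNIP3, a mitophagy receptor and HIF1 target, read 69.1, 82.2 and 60.7 CPM and then 68.6, 195 and 81.5 CPM and did not pass (0.70 ± 0.37, adjusted p = 0.16). PFKFB4, a regulator of glycolytic flux, read 3.58, 3.33 and 1.37 CPM and then 3.86, 52.2 and 11.4 CPM (3.02 ± 0.91, adjusted p = 0.0226). VEGFA was clear of its 24 h range in each library, while BNIP3 and PFKFB4 were high chiefly in replicate 2. The collagen prolyl hydroxylase gene P4HA2 (1.86) passed with overlapping groups. In all 22 of the 24 genes were highest in replicate 2, and the list's medians were 0.15, 1.12 and 0.46 in replicates 1, 2 and 3. The count of 9 was 13 without 72 h replicate 1, 6 without 24 h replicate 2, 5 without 72 h replicate 2, 5 without 24 h replicate 1 and 5 without 24 h replicate 3. Without 72 h replicate 2 the adjusted p of PFKFB4 was 0.16 and that of P4HA2 0.31, and without 24 h replicate 1, 2 or 3 it was 0.053, 0.061 and 0.094 for PFKFB4 and 0.056, 0.11 and 0.12 for P4HA2.

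Glycolysis genes split by library. Of 21 tested, 5 rose and 4 fell, with a median of -0.33. LDHA, lactate dehydrogenase A, read 1646, 1810.0 and 1690.0 CPM at 24 h and 526, 1661 and 813 CPM at 72 h and did not pass (log2 -0.78 ± 0.38, adjusted p = 0.132). SLC2A1, the main glucose transporter, read 47.7, 57.8 and 51.9 CPM and then 30.0, 60.5 and 37.5 CPM (-0.30 ± 0.28, adjusted p = 0.424). ALDOC, an aldolase, read 14.1, 11.1 and 6.21 CPM and then 21.1, 139.5 and 26.5 CPM (2.57 ± 0.75, adjusted p = 0.0195). For all 3 genes replicate 2 was the highest 72 h library, as for 20 of the 21 genes of the list. SLC16A3, the lactate exporter, rose by 1.11 in log2. The transporter SLC2A3 passed at 1.11, and PGAM1, phosphoglycerate mutase, passed at -0.90. Without 72 h replicate 2 the list had 1 rise and 7 falls, LDHA passed (adjusted p = 0.015) and the calls of ALDOC and SLC2A3 were lost (0.15 and 0.089). The rises and falls were 3 and 1, 2 and 0, and 1 and 0 without 24 h replicates 1, 2 and 3, and 5 and 1, and 5 and 0, without 72 h replicates 1 and 3. The call of PGAM1 was lost without any 1 of the other 5 libraries (adjusted p = 0.084 to 0.16), those of ALDOC and SLC2A3 also without 24 h replicate 3 (0.085 and 0.081), that of ALDOC without 24 h replicate 2 (0.059) and that of SLC2A3 without 24 h replicate 1 (0.072). Under scaling by total gene reads the list had 5 rises and 1 fall.

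Cholesterol genes were not shifted as a group. Of 23 genes of sterol synthesis and uptake, 1 rose and 2 fell, with a median of 0.04. HMGCS1, which makes the HMG-CoA of the sterol pathway, read 194, 129.6 and 162 CPM at 24 h and 102, 268 and 148 CPM at 72 h (log2 0.09 ± 0.32, adjusted p = 0.837). It was above the 24 h range in replicate 2 and below it in replicate 1, and 21 of the 23 genes were highest in replicate 2. The 3 calls were SREBF2 (0.58, adjusted p = 0.0477), ACAT2 (-0.75, 0.0189) and PMVK (-0.70, 0.0245). SREBF2 kept its call only without 72 h replicate 1 (adjusted p up to 0.18 without the others). ACAT2 lost its call without 24 h replicate 1 or 72 h replicate 1 or 3 (up to 0.081), and PMVK without 24 h replicate 2 or 3 or 72 h replicate 1 or 3 (up to 0.11).

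Several fatty acid synthesis genes fell, and oxidation genes were mixed. Of 14 synthesis and desaturation genes, 1 rose and 6 fell, with a median of -0.27, and 4 fell under scaling by total gene reads. FASN, fatty acid synthase, read 436, 444 and 569 CPM at 24 h and 220.0, 331 and 297 CPM at 72 h, 1.71-fold lower (log2 -0.77 ± 0.18, adjusted p = 0.00597). ACLY, which supplies its acetyl-CoA, read 332, 322 and 330.5 CPM and then 150.1, 233 and 218 CPM (-0.71 ± 0.18, adjusted p = 0.0099). SCD, the stearoyl-CoA desaturase, read 531, 479 and 511 CPM and then 249.9, 715 and 441 CPM (-0.11 ± 0.30, adjusted p = 0.796, and 0.00 under scaling by total gene reads). FASN and ACLY were lower in each 72 h library, while SCD was highest and lowest of all 6 in replicates 2 and 1 at 72 h. The carboxylase ACACA (-0.64) and the elongase ELOVL1 (-0.65) also fell, and the lipid regulator SREBF1 passed at 0.55, a call lost without 24 h replicate 2 or 3 or 72 h replicate 1 (adjusted p = 0.071, 0.077 and 0.061). Of 18 genes of fatty acid oxidation and lipid droplets, 4 rose and 2 fell (median -0.15), and the rises numbered 1 without 24 h replicate 1 or 3 and 2 without 24 h replicate 2 or 72 h replicate 1 or 3. Among them were the short-chain dehydrogenase ACADS (0.76) and the lipid-sensing nuclear receptor PPARA (0.88), whose call was lost without 24 h replicate 1 or 3 or 72 h replicate 2 (adjusted p = 0.051, 0.057 and 0.06). Another list held 10 genes of sterol efflux, of the sterol receptor LXR itself and of its targets. Of these, 2 rose (SREBF1 and APOE) and 1 fell (the phospholipid acyltransferase LPCAT3, -0.58), with a median of 0.28. LPCAT3 has 66.0% of its exonic length overlapped on the other strand. The shares called were 33.3% of the oxidation and lipid droplet genes and 30.0% of these sterol efflux and LXR genes. Both were close to the 31.7% of all genes. The exporter ABCA1 read 33.4, 42.7 and 25.1 CPM and then 32.9, 68.8 and 45.0 CPM (0.53 ± 0.28, adjusted p = 0.154). APOE, apolipoprotein E, had 3, 2 and 4 reads at 24 h and 20, 35 and 18 at 72 h.

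Interferon-stimulated genes were higher in 2 of the 3 libraries at 72 h. Of 47 tested, 24 passed as higher and 0 as lower, with a median of 1.65, but only 8 of the 24 had groups that did not overlap. The interferon response element was searched as GAAANNGAA (reverse complement TTCNNTTTC) and found in 25 of 38 promoters of the list (65.8%), against 2264 of 27305 (8.3%). The next highest shares of a list were 10 of 23 promoters of replication-dependent histones (43.5%) and 9 of 22 of antigen presentation genes (40.9%). IFIT1 is shown as an extreme case of the list, with 2 matches in capitals, both as the reverse complement, 115 and 102 bases before the start (RefSeq, GRCh38.p14, chr10:89392373-89392622, plus strand, 5′ to 3′).
IFIT1: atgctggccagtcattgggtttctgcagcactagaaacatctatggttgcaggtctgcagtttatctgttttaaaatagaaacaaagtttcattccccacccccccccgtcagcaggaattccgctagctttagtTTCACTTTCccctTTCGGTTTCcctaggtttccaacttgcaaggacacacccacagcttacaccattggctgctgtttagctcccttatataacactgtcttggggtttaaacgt

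IFIT1, which binds foreign RNA caps, had 2, 0 and 5 reads at 24 h and 232, 1 and 144 reads at 72 h in replicates 1, 2 and 3 (log2 5.5 ± 1.63, adjusted p = 0.0208). IFI44L, a commonly used interferon marker, had 4, 11 and 36 reads and then 2211, 1 and 558 reads (5.58 ± 1.87, adjusted p = 0.036). ISG15, a ubiquitin-like modifier, read 31.2, 30.7 and 30.9 CPM and then 236, 24.4 and 84.7 CPM (1.89 ± 0.63, adjusted p = 0.0342). In each of these replicate 1 was highest, replicate 3 next, and replicate 2 at or below the 24 h level. IFIT2 (4.47) and XAF1 (4.20) passed with the same order, though 38.3% of the exonic length of XAF1 is overlapped on the other strand. The calls of IFIT1, IFI44L, ISG15 and XAF1 were lost without 72 h replicate 1 (adjusted p = 0.062, 0.14, 0.27 and 0.083) and without any 1 of the 24 h libraries (0.053 to 0.11), and that of IFIT2 without 24 h replicate 2 (0.055).

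Across the interferon list, 43 of 47 genes were highest in replicate 1 and 43 were lowest in replicate 2 at 72 h. The medians were 2.18, -0.19 and 1.56 in replicates 1, 2 and 3. The count of 24 became 37 without 72 h replicate 2, 7 without 72 h replicate 1, 20 without 72 h replicate 3, and 11, 6 and 8 without 24 h replicates 1, 2 and 3. The median was also unequal in the GS716054 libraries at 72 h, at 1.43, -0.36 and -0.08 in replicates 1, 2 and 3. The 8 genes that passed without overlap were IFITM1, IRF1, IRF7, IRF9, ISG20, LGALS3BP, STAT2 and TRIM22. Among them IRF7, a master regulator of type I interferon that is given after its values were seen, read 32, 28.2 and 29.2 CPM at 24 h and 431, 48.4 and 152 CPM at 72 h (2.82, adjusted p = 0.00511). IRF7 was thus raised in replicate 2 also, though least there.

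**Figure D4:**
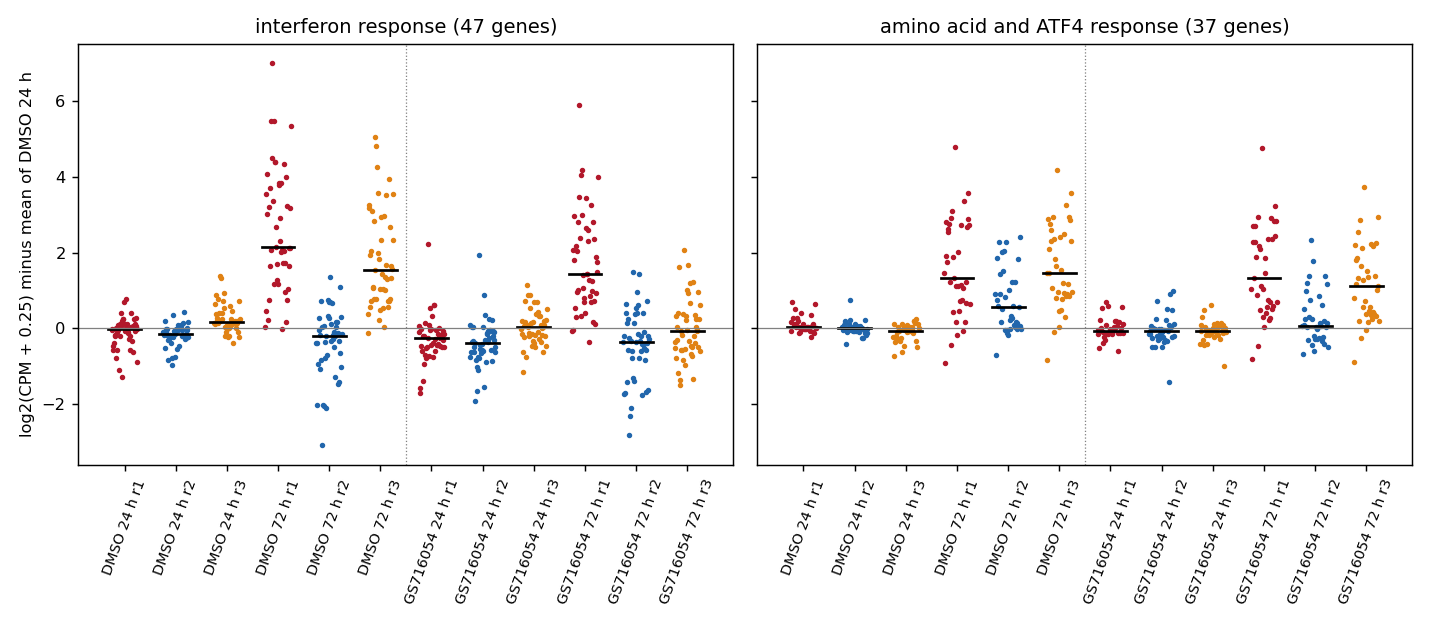
Each gene of the interferon list and of the ATF4 list in every JEKO library, DMSO and GS716054 at 24 h and 72 h, as log2(CPM + 0.25) minus the mean of the 3 DMSO libraries at 24 h (y axis), with 1 point per gene and a line at the median. In DMSO at 72 h the interferon genes are high in replicates 1 and 3 and near 0 in replicate 2, and the ATF4 genes are above 0 in all 3 and lowest in replicate 2.

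Antigen presentation genes rose in part. Of 28 tested, 10 were higher, 1 lower (the costimulator CD86, -0.51) and 17 not called, with a median of 0.32. The rises numbered 6, 6 and 4 without 24 h replicates 1, 2 and 3, and 5 without 72 h replicate 1. CD74, the class II invariant chain, read 1915, 2084 and 2046 CPM at 24 h and 2277, 2541 and 2114 CPM at 72 h and did not pass (log2 0.20 ± 0.20, adjusted p = 0.464). It was above the 24 h range in each library at 72 h. The class I heavy chain genes HLA-F (2.25), HLA-E (0.99), HLA-B (0.92) and HLA-C (0.81) passed. Without 72 h replicate 1 the adjusted p was 0.06 for HLA-B and 0.061 for HLA-C, and HLA-F and HLA-E kept their calls without any 1 library. The call of HLA-B was also lost without 24 h replicate 3 (0.06) and that of HLA-C without 24 h replicate 2 or 3 (0.056 for both). The HLA genes are highly polymorphic and alike, so reads can be lost or shared among them.

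NF-kappaB targets rose in part, and few immediate early genes passed. Of 25 NF-kappaB targets, 9 rose and 0 fell, with a median of 0.48. The count was 5 without 24 h replicate 2 or 3 or 72 h replicate 1, and the median was 0.27 without 24 h replicate 2 or 72 h replicate 1, and 0.76 and 0.75 without 24 h replicate 1 and 72 h replicate 2. RELB, a subunit of the non-canonical pathway, read 60.8, 53.8 and 63.5 CPM at 24 h and 169.9, 116 and 136 CPM at 72 h (log2 1.24 ± 0.17, adjusted p = 0.000766). NFKB2, its partner, went from 108, 87.9 and 107 CPM to 251, 158 and 206 CPM (1.02 ± 0.18, adjusted p = 0.00188). All 72 h libraries were above those at 24 h for both. The signalling adaptor TRAF1 (1.43) rose too. The inhibitor NFKBIA passed at 0.72 and the cytokine IL10 at 1.92 with overlapping groups, and without 72 h replicate 1 their adjusted p was 0.14 for both. NFKBIA kept its call only without 72 h replicate 2 (0.065 to 0.14 without another library), and IL10 lost it also without 24 h replicate 2 or 3 (0.084 and 0.079). Of 23 immediate early genes, 2 rose and 0 fell (median 0.27), and the rises ranged from 1 to 4 with any 1 library left out. The orphan receptor NR4A1 read 39.1, 39.0 and 39.5 CPM and then 92.0, 86.5 and 62.6 CPM (1.04 ± 0.18, adjusted p = 0.00164), and its relative NR4A3 changed by 0.89, a call lost without 24 h replicate 1 or 2 or 72 h replicate 1 (0.062, 0.11 and 0.12). FOS read 1.29, 0.683 and 0.731 CPM and then 3.06, 2.09 and 1.39 CPM (1.28 ± 0.50, adjusted p = 0.0638), and EGR1 changed by 0.54 (adjusted p = 0.194), so neither passed.

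Of 38 genes of B-cell receptor signalling and B-cell identity, 8 rose and 2 fell, with a median of 0.00. The share called, 26.3%, lay below the 31.7% of all genes. The rises numbered 5, 4 and 5 without 24 h replicates 1, 2 and 3, and the falls 5 without 72 h replicate 2. MS4A1, which codes for CD20, read 462, 436 and 487 CPM at 24 h and 217, 356 and 288 CPM at 72 h, 1.61-fold lower (log2 -0.69 ± 0.17, adjusted p = 0.00941). CD79A, a signalling chain of the receptor, read 394, 419 and 475 CPM and then 383, 464 and 433 CPM (-0.01 ± 0.20, adjusted p = 0.977, and 0.11 under scaling by total gene reads). MS4A1 was lower in each 72 h library and CD79A overlapped. The inhibitory receptor CD22 (1.00), the tetraspanin CD37 (0.90) and the exchange factor VAV2 (0.77) rose. SOX11 read 89.9, 102 and 77.2 CPM and then 79.7, 142 and 92.0 CPM (0.22 ± 0.21, adjusted p = 0.428).

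Few genes of plasma cell differentiation passed, and the share called lay below the 31.7% of all genes. Of 16 tested, 1 rose and 3 fell, with a median of 0.15 (3 rose without 72 h replicate 2). PRDM1 (BLIMP1), the repressor that ends the B-cell programme, read 8.96, 7.0 and 8.49 CPM at 24 h and 3.70, 3.14 and 5.24 CPM at 72 h, 2.02-fold lower (log2 -1.01 ± 0.23, adjusted p = 0.00605). JCHAIN, the joining chain of secreted antibody, read 373, 437 and 388 CPM and then 117, 276 and 140.5 CPM (-1.17 ± 0.27, adjusted p = 0.0067). Both were below their 24 h range in each library. IRF4 changed by 0.47 (adjusted p = 0.0371), and its call held without 72 h replicate 2 and was lost without any 1 of the other 5 libraries (adjusted p = 0.056 to 0.12). Among 26 homing and adhesion genes, 7 rose and 1 fell (median 0.07), and the share called, 30.8%, was close to the 31.7% of all genes. The rises numbered 2, 3 and 3 without 24 h replicates 1, 2 and 3 and 4 without 72 h replicate 1, and the falls 4 without 72 h replicate 2. The SLAM-family ligand CD48 rose by 1.14 and the receptor S1PR2, which holds B cells in follicles, fell by 0.94, a call lost without 24 h replicate 3 (adjusted p = 0.076). CXCR4, the receptor for CXCL12, read 429, 490.0 and 359 CPM and then 228, 519.5 and 333 CPM (-0.24 ± 0.29, adjusted p = 0.545).

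Of 23 apoptosis regulators, 5 rose and 2 fell, with a median of -0.04 (0.08 under scaling by total gene reads). The share called, 30.4%, was close to the 31.7% of all genes. One fall was that of BAK1 (-0.69), an effector of mitochondrial permeabilisation. BBC3 (PUMA), which frees BAX and BAK, read 6.87, 9.65 and 7.21 CPM at 24 h and 50.5, 44.9 and 44.7 CPM at 72 h, 5.88-fold higher (log2 2.56 ± 0.18, adjusted p = 1.1e-05). BMF, another such BH3-only gene, read 40.5, 39.6 and 26.0 CPM and then 137, 155 and 133 CPM (2.00 ± 0.23, adjusted p = 0.000402). BCL2, an anti-apoptotic member, read 127, 124 and 112 CPM and then 172, 224 and 177 CPM (0.66 ± 0.15, adjusted p = 0.00645). These 3 were higher in each library at 72 h, and BBC3 had its 72 h libraries within a narrow range. BCL2L2, also anti-apoptotic (1.62), and the death receptor TNFRSF10B (1.06) rose. MCL1 read 403, 359.6 and 384 CPM and then 352, 366 and 399 CPM (-0.04 ± 0.14, adjusted p = 0.852, and 0.08 under scaling by total gene reads).

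Among the KDM5 family and other enzymes of histone H3 lysine 4 methylation, 1 of 10 rose and 2 fell in vehicle alone, with a median of -0.15. The share called, 30.0%, was close to the 31.7% of all genes. KDM5A read 127, 115 and 123 CPM at 24 h and 63.2, 98.6 and 97.6 CPM at 72 h (log2 -0.49 ± 0.17, adjusted p = 0.0358). KDM5B read 15.7, 19.4 and 13.9 CPM and then 17, 59.2 and 27.9 CPM (1.08 ± 0.37, adjusted p = 0.0365). KDM5C read 163, 168 and 189.8 CPM and then 139, 202 and 199 CPM (0.05 ± 0.16, adjusted p = 0.826). KDM5A was lower in each 72 h library, while KDM5B was high chiefly in replicate 2 and its groups overlapped. The calls rested on single libraries: without 72 h replicate 1 the adjusted p of KDM5A was 0.14, and without 72 h replicate 2 that of KDM5B was 0.23. Both were also lost without 24 h replicate 1, 2 or 3 (0.11, 0.07 and 0.1 for KDM5A; 0.09, 0.06 and 0.12 for KDM5B). The methyltransferase SETD1A changed by -0.51 (adjusted p = 0.0286), a call lost without 24 h replicate 3 or 1 or 72 h replicate 1 or 2 (adjusted p up to 0.17).

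The same interval in JEKO given GS716054 uses other libraries at both times but is not independent. It shares the fit, and at 72 h the same-numbered DMSO and GS716054 libraries deviated together from their group means, at r = 0.593, 0.551 and 0.291 in replicates 1, 2 and 3 (Pearson, across genes), against -0.521 to 0.071 between other numbers. Deviations from a mean of 3 libraries sum to 0 for each gene, so positive values between same numbers bring negative ones between others. With GS716054, 4500 genes (27.0%) passed, 2518 higher and 1982 lower. That count was 1940 without GS716054 24 h replicate 3 and 2123 without GS716054 72 h replicate 1. Of the DMSO calls, 1861 higher (65.2% of those in DMSO and 73.9% of those in GS716054) and 1625 lower (66.5% and 82.0%) were also called in GS716054 in the same direction, and 1 gene was called in opposite directions. The sign was the same for 2838 of the 2856 higher and 2429 of the 2443 lower genes. The test of the difference between these time changes called 0 genes with edgeR (299 had an unadjusted p under 0.05) and 1 with DESeq2. The heat shock list had 0 rises and 20 falls in GS716054 (median -0.94), the replication list 0 and 35 (-1.08) and the ATF4 list 20 and 1 (1.10). The interferon list had 4 rises and 0 falls (1.11), and oxidative phosphorylation 1 and 6 (-0.18). Of its GS716054 24 h libraries, replicate 2 had an oxidative phosphorylation median of -0.75 against the DMSO 24 h mean, beside -0.01 and 0.06 in replicates 1 and 3, and its part in the value of -0.18 was not tested. For PRDM1 the log2 change was -0.03 in GS716054, and for CDKN1A 0.86.

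In MINO given DMSO 633 of 17980 genes (3.52%) passed over the same interval, and in UPN-1 181 (1.01%). At an unadjusted p under 0.05 the counts were 4412 in MINO and 3529 in UPN-1, against 7738 in JEKO in the same fit. The test of the difference in time change called 5 genes (0.0278%) between JEKO and MINO and 32 (0.178%) between JEKO and UPN-1 (2339 and 2117 at an unadjusted p under 0.05). With 1 JEKO library left out, these counts ranged from 1 to 98 and from 1 to 149, the largest without 72 h replicate 2, and a fit with a replicate block gave 202 and 273. In the fit of 36 libraries, the ATF4 list had a median of 0.68 in MINO, with 11 of its genes higher, and of 0.11 with 0 higher in UPN-1. The interferon list had medians of -0.04 and 0.32 in MINO and UPN-1, the heat shock list -0.51 and -0.64, the replication list -0.55 and -0.16, and the MYC and ribosome biogenesis list -0.45 and -0.59. The hypoxia list had medians of 1.44 and 1.05. At 72 h the hypoxia median of replicate 2 was 2.38 in MINO, against 0.46 and 0.54 in replicates 1 and 3. In UPN-1 the medians were 0.94, 1.62 and 0.094 in replicates 1, 2 and 3.

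Between JEKO and UPN-1 the genes with larger rises in JEKO included ASS1 and TRIB3. ASS1 changed by 4.61 in JEKO and 0.18 in UPN-1, a difference of 4.43 (SE 0.81, adjusted p = 0.0236). TRIB3 changed by 2.76 in JEKO and -0.0028 in UPN-1, a difference of 2.77 (adjusted p = 0.0437). Both were lost without 24 h replicate 2 (0.056 for ASS1, 0.14 for TRIB3), 24 h replicate 3 (0.085 and 0.11) or 72 h replicate 1 (0.096 and 0.28), and that of TRIB3 also without 24 h replicate 1 (0.12) or 72 h replicate 3 (0.061). PRDM1 differed from MINO, with -1.01 in JEKO and 1.17 in MINO (difference -2.18, SE 0.41, adjusted p = 0.0352), a call lost without any 1 of the JEKO libraries other than 72 h replicates 2 and 3 (0.061 to 0.13). SCAMP5 changed by -1.66 in JEKO but did not fall in the other lines. Its change was 0.068 for MINO, a difference of -1.73 (adjusted p = 0.00404). For UPN-1 the change was 0.30, a difference of -1.96 (adjusted p = 0.000439).

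**Figure D5:**
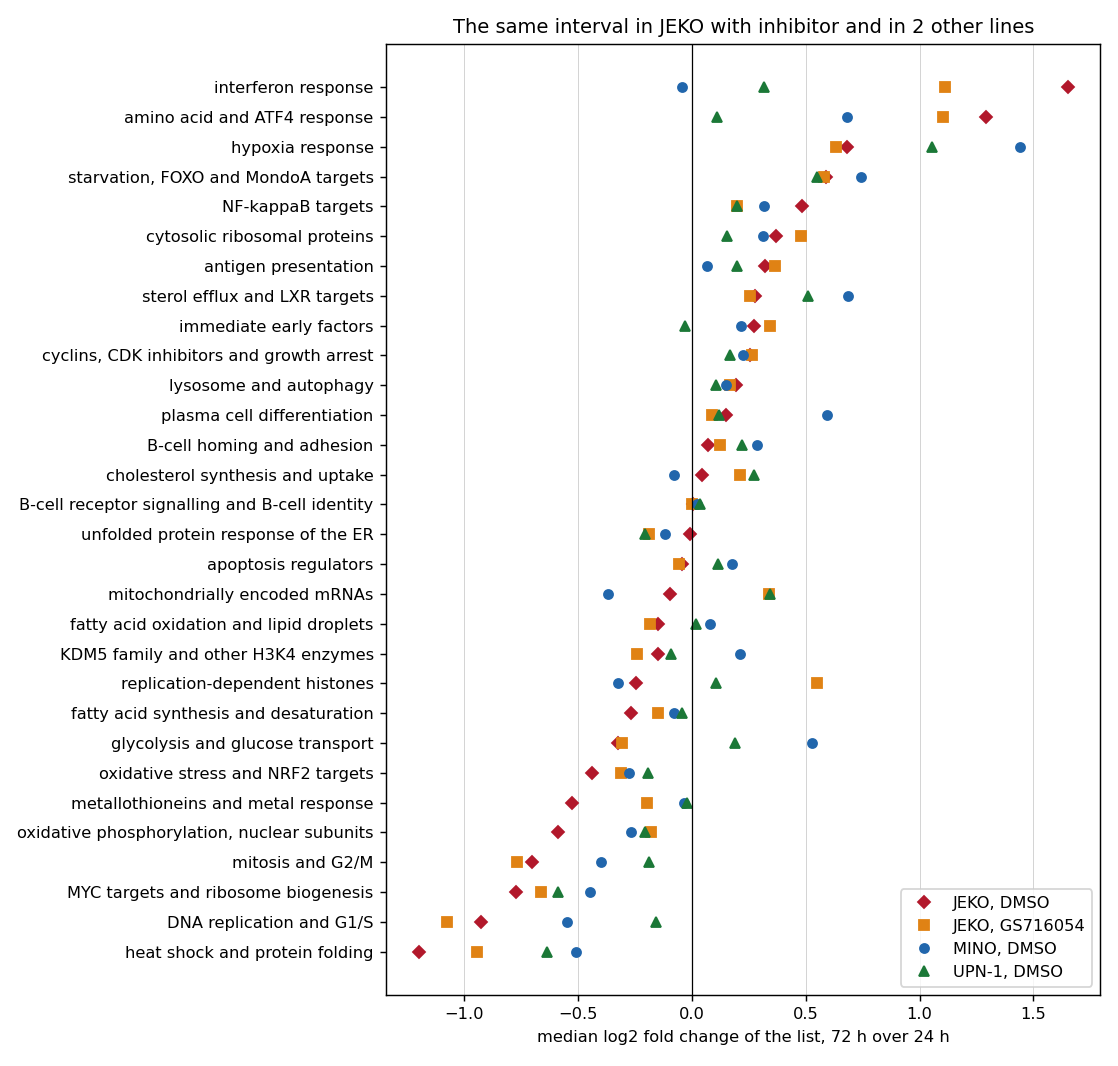
Median change from 24 h to 72 h (log2 scale, x axis) of 30 gene lists in JEKO DMSO, JEKO GS716054, MINO DMSO and UPN-1 DMSO, with 1 point per line and treatment; the JEKO values come from the fit of 12 libraries and the MINO and UPN-1 values from the fit of 36. The heat shock and MYC lists lie below 0 in all 4, the ATF4 list lies above 1 in both JEKO treatments and at 0.11 in UPN-1, and the hypoxia list is highest in MINO.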

How the data were processed

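Total RNA of 36 cell line libraries was sequenced. The authors deposited integer read counts, 1 table per library, for 58302 Ensembl genes, made with HISAT2 2.2.1 and HTSeq 0.13.5 on GRCh38 per the submitters' processing notes. The sources used here state no counting options, strandedness or annotation release, so reads of overlapping antisense genes cannot be told apart. The 5 summary lines of each table were left out. In the 6 libraries compared, 43.7% to 45.2% of reads fell in no feature. Symbols and positions came from GENCODE v44 for 57532 gene IDs.

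The 12 JEKO libraries were fitted with edgeR 4.0.16 (R 4.3.3, limma 3.58.1) in 1 quasi-likelihood model, with TMM scaling, filterByExpr (count 10, total 15) and 8 residual degrees of freedom. Differences between lines came from 1 model of all 36 libraries (17980 genes). Calls were made at an adjusted p below 0.05 (Benjamini-Hochberg, across the genes of a fit). CPM are read counts over TMM-scaled library sizes; log2 CPM used a prior count of 2. The standard error (SE) was taken from the log2 fold change and its F statistic. With no molecular identifiers stated, read floors cover counting error only.

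Named are the 12 largest rises and falls among called genes whose mean level was 1 log2 CPM or more and whose times did not overlap, up to 4 called members per list by size, and textbook members. In lists with few calls, members beyond this rule are named, chosen after their values were seen. The members and the 30 lists were chosen with earlier results of these data known. Of 817 list symbols, 4 were not matched. Promoters are RefSeq windows of 250 bases before to 50 after a start. Alternatives were DESeq2 1.42.0 and its size factors, other filters, other sets of libraries, scaling by total gene reads, each library left out and a replicate block. The scripts were tested on simulated data. Some genes are not reported here.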

Additional observations from a re-analysis of the deposited data

Results flagged for a closer look

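The difference in change over time passed for 5 genes between JEKO and MINO and for 32 genes between JEKO and UPN-1, by the test of the difference itself in 36 libraries (edgeR's quasi-likelihood test with Benjamini-Hochberg adjustment over 17980 genes). A fit with a replicate block gave 202 and 273. Values below are log2 changes from 24 h to 72 h in DMSO, and differences are JEKO minus the other line. CPM here are scaled over all 36 libraries, so they lie slightly off those of JEKO alone.

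Against MINO, GPSM1, an organiser of G-protein signalling, rose by 2.40 in JEKO and changed by 0.14 in MINO, a difference of 2.26. Its JEKO level was 12.1, 8.79 and 7.06 CPM at 24 h and 35.7, 79.7 and 31.7 CPM at 72 h, below the range it had in MINO at both times except in 72 h replicate 2. PEX6, an ATPase of peroxisome import, changed by 0.97 and 0.079, a difference of 0.89. PRDM1 changed by -1.01 and 1.17, a difference of -2.18. It fell in all 3 JEKO libraries at 72 h, to between 2.85 and 4.73 CPM, and lay between 8.62 and 19.1 CPM in MINO at 72 h. SCAMP5 changed by -1.66 and 0.068, a difference of -1.73. The call of SCAMP5 held without any 1 JEKO library, that of GPSM1 in 4 of those 6 fits, and those of PEX6 and PRDM1 in 2.

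Against UPN-1 the differences were 4.43 for ASS1, 2.88 for FAM118A, 2.77 for TRIB3, 2.68 for the sarcosine dehydrogenase SARDH and 2.43 for the peptide hormone gene ADM2. FAM118A went from 32.9, 19.6 and 14.6 CPM to 295, 86.7 and 93.1 CPM in JEKO and stayed between 20.9 and 24.3 CPM in UPN-1. The differences with the other sign were -3.81 for the kinase WNK2, -1.96 for SCAMP5, -1.82 for FSTL5, -1.69 for the calponin CNN2 and -1.53 for PEX7, an import receptor of peroxisomes. SCAMP5 held without any 1 JEKO library, ASS1, FAM118A, SARDH, ADM2 and CNN2 held in 3 of 6 such fits, WNK2 in 2, and TRIB3, FSTL5 and PEX7 in 1. WNK2 was at or under 0.32 CPM in JEKO at 72 h, close to the worth of 3 reads.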

How the results depend on the processing

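The count of 5299 calls was 5291 with DESeq2 size factors, 5691 with DESeq2, 5834 in all 36 libraries, 5583 without a low-count filter and 4421 with a minimum count of 50. The falls numbered 1549 under scaling by total gene reads. With 1 library left out, JEKO DMSO calls ranged from 2717 to 4914 (1525 to 2817 higher, 1192 to 2097 lower); they were 2717 without 24 h replicate 3, 3393 without 24 h replicate 2 and 3544 without 72 h replicate 1. JEKO GS716054 calls ranged from 1940 to 4208 (1131 to 2583 higher, 809 to 1874 lower). The difference between treatments stayed from 0 to 0, with 1 call (1 lower) by DESeq2.

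The JEKO minus MINO count ranged from 1 to 98 (0 to 66 higher, 1 to 32 lower) and the JEKO minus UPN-1 count from 1 to 149 (0 to 102 higher, 1 to 47 lower). With the stricter filter they were 16 (12 higher) and 55 (42 higher), and in the 18 DMSO libraries 3 (0 higher) and 21 (6 lower). The labels do not pair replicate numbers. Deviations of same-numbered libraries correlated at 0.054, 0.05 and 0.169 between DMSO at 24 h and 72 h (each 24 h library best with its own number), at 0.131, 0.055 and 0.213 between the treatments at 24 h, and at 0.593, 0.551 and 0.291 between the treatments at 72 h. With the replicate block the counts were 6150 in DMSO (3211 higher, 2939 lower), 5472 in GS716054, 0 for the difference between treatments, 202 (92 higher, 110 lower) for JEKO minus MINO and 273 (141 and 132) for JEKO minus UPN-1. The cause was not tested.

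Of the alternative values of named genes, 1823 kept direction and side of the threshold, 162 lost and 18 gained a call, and 19 turned sign. None of those that turned sign was called. Under total-read scaling these were CCND1 (0.025), CD79A (0.11), MCL1 (0.085) and SCD (0.0028), with the stricter filter CD79A (0.072) and MCL1 (0.043), and in 6 libraries CD79A (0.011). With 1 library left out, CD79A ranged from -0.060 to 0.083, CXCR4 from -0.59 to 0.015, HMGCS1 from -0.36 to 0.37, HSPA5 from -0.69 to 0.026, KDM5C from -0.029 to 0.22, MCL1 from -0.080 to 0.015, SCD from -0.54 to 0.20 and SOX11 from -0.049 to 0.40. Of the list counts, 648 stayed within 1.5 times their value and 192 did not. For line differences, 51 of 140 values lost a call. At this depth 3 reads are 0.236 to 0.285 CPM, so IFIT1, IFIT2, OSGIN1 and APOE lay near the floor at 24 h. Other named genes had few reads at 24 h, among them ASNS (14, 9 and 4), RAB3IL1 (6, 6 and 6) and FOS (13, 8 and 8).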

Other observations

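Further gene families were looked at after the values were seen, so their counts are a description and support nothing. Of 24 host genes of small nucleolar RNAs, which guide the chemical modification of ribosomal RNA, 10 were higher and 0 lower at 72 h, with a median of 0.77 on the log2 scale beside 0.05 over all genes tested. SNHG32 read 77.6, 81.3 and 59.2 CPM at 24 h and 278, 131 and 168 CPM at 72 h (1.40 ± 0.25, SE). Every 72 h library was above those at 24 h.

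Families of protein production and turnover had more falls than rises. Of 9 subunits of the cytosolic chaperonin, which folds actin and tubulin, 0 rose and 8 fell, with a median of -1.04. TCP1, one of them, read 435, 458 and 475 CPM at 24 h and 143, 199 and 163 CPM at 72 h (-1.44 ± 0.20). Of 38 proteasome subunit genes 0 rose and 24 fell (median -0.59), among them PSMD1, from 197, 211 and 248 CPM to 68.3, 62.8 and 98.8 CPM (-1.51 ± 0.20). Of 77 mitochondrial ribosomal protein genes 0 rose and 40 fell (median -0.55). Of 24 importins and exportins, which carry proteins through the nuclear pore, 0 rose and 18 fell (median -0.67), with KPNA2 at -1.53. Translation initiation factors were more mixed, with 4 rises and 22 falls among 57 genes (median -0.37). Of 17 mitochondrial tRNA synthetase genes 0 rose and 8 fell (median -0.41). Over all genes tested, 21.8% fell at mean levels from 4 to 7 log2 CPM and 36.1% at 7 or more. The medians in MINO and UPN-1 over the same interval were -0.50 and -0.56 for the chaperonin, -0.41 and -0.37 for the proteasome and 0.24 and 0.13 for the small nucleolar RNA host genes.

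The nuclear-paraspeckle RNA NEAT1 was 29.9 ± 10.7 CPM (SD, n = 3) at 24 h and 189 ± 138 CPM at 72 h (log2 2.66, adjusted p = 0.00406, edgeR). The long non-coding RNA MIAT was 39.2 ± 7.58 CPM and then 270.1 ± 216 CPM (2.78, adjusted p = 0.00987). Both had all 72 h libraries above those at 24 h, with a spread at 72 h close to the mean.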
